A study of Drosophila montana with 12 samples.

Results

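The 200 contigs described here stood highest in nondiapausing (ND) relative to diapausing (D) *Drosophila montana* females. They were chosen by their own levels from 31233 assembled contigs, of which 21100 had a mean of 5 or more CPM over the 12 libraries (CPM, the reads counted on a contig scaled to the library total) and could enter. For each of these the lowest CPM of the 6 ND libraries was divided by the highest CPM of the 6 D libraries plus 0.1, and the 200 contigs with the highest quotient, called the rule ratio below, became the members. The contigs of the yolk protein genes Yp3 (contig_633) and Yp2 (contig_8009) were left out in advance. Because the ND and D levels chose the members, the state difference is given as a description and was not tested.

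Each library was made from polyA RNA of 10 pooled whole females of 21 d of age, frozen at one set time after lights on, and each group held 3 libraries. The 4 groups were ND females at the critical day length (CDL), ND females at LD 22:2 (hours of light and dark), D females at LD 16:8, and D females at the CDL. The CDL is the light cycle under which females of the population divide between the 2 states, and it is labelled as 17.5 h of light and 5.5 h of dark (the methods give a longer light phase with the same dark phase). The LD 22:2 and LD 16:8 libraries all came from isofemale line 175OJ8, the descendants of a single wild-caught female, whereas the 3 CDL libraries of each state came from lines 3OL8, 265OJ8 and 175OJ8, 1 library per line and state. All lines were kept in continuous light before the experiment. No label says whether the 3 pools of a group came from separate cultures, so the p-values below measure the spread between these libraries, which may be technical in part. Light cycle and line could be separated in part only, through line 175OJ8, which was present in every group.

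Females of *D. montana* overwinter as adults in a reproductive diapause that is induced by short days. In diapause the ovaries stay previtellogenic, which means that the oocytes take up no yolk, whereas in reproducing females the fat body and the ovarian follicle cells make yolk proteins and the follicles fill with growing eggs. A vitellogenic ovary holds nurse cells, follicle cells and growing oocytes, and the nurse cells load the oocyte with maternal transcripts for the embryo. The study sorted females by dissection into those with small transparent ovaries and those with large ovaries with visible eggs, and left intermediate females out. In pools of whole flies, more cells of a type and more RNA per cell cannot be told apart.

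The state labels were checked by the yolk protein genes, and these were higher in every ND than in every D library. Yp2 (contig_8009) had 294, 431 and 521 CPM (lowest, median and highest of 6 libraries) in ND females, against 20.9, 43.1 and 111 CPM in D females, and Yp3 (contig_633) had 966, 1137 and 1718 CPM in ND females, against 91.0, 149 and 442 CPM in D females. The lowest ND library exceeded the highest D library by 2.63 times for Yp2 and 2.18 times for Yp3 on the scale of the rule, which is below the 4.25 of the last member. Lsp2 (contig_653), a larval serum protein gene, ran the other way, with 36.5, 256 and 1393 CPM in ND females and 2195, 4427 and 5538 CPM in D females. Library totals ranged from 2986505 counts (ND CDL, line 3OL8) to 6637623 counts, so that a single read was worth 0.151 to 0.335 CPM.

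The members took 2.33 to 3.04% of all counts in the 6 ND libraries and 0.179 to 0.276% in the 6 D libraries. The share was 2.64, 2.63 and 3.04% in ND CDL females of lines 3OL8, 265OJ8 and 175OJ8, and 2.67, 2.75 and 2.33% in the 3 ND LD 22:2 libraries. It was 0.184, 0.179 and 0.214% in D LD 16:8 females, and 0.236, 0.237 and 0.276% in D CDL females of lines 3OL8, 265OJ8 and 175OJ8. Within the ND state the light cycles overlapped, and within the D state every CDL library lay above every LD 16:8 library. Across members the median level was 57.1, 56.1 and 67.2 CPM in the ND CDL libraries (lines in the same order) and 61.3, 59.6 and 50.2 CPM in the ND LD 22:2 libraries, against 4.54, 4.34 and 5.26 CPM at D LD 16:8 and 5.45, 5.42 and 6.01 CPM at D CDL.

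**Figure D1:**
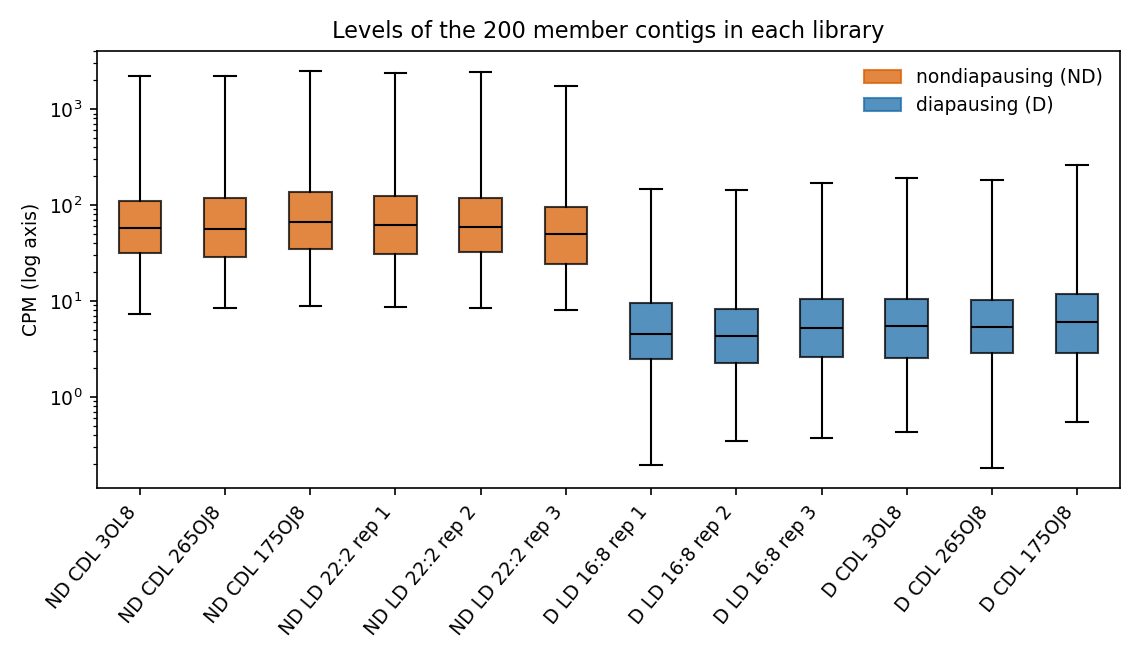
Levels of the 200 members in each of the 12 libraries, in CPM on a log axis. Boxes span the quartiles, the line is the median and the whiskers reach the lowest and highest member. Medians lie between 50.2 and 67.2 CPM in ND libraries (orange) and between 4.34 and 6.01 CPM in D libraries (blue).

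The ratio of the mean ND to the mean D level had a median of 10.4 over the members and ranged from 5.28 to 115, beside a median of 1.31 over the 21100 contigs that could enter. The rule ratio had a median of 5.50, was 10 or more for 28 members and 20 or more for 5. By construction every ND library exceeded every D library in all 200 members, and the same order held in 37.5% of the 21100 contigs. Mean ND levels ran from 9.71 to 2234 CPM with a median of 59.1 CPM, and 63 members reached 100 CPM. Mean D levels ran from 0.617 to 164 CPM with a median of 5.14 CPM, and 99 members stayed under 5 CPM.

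The members were low in D females but not silent. No member was at a count of 0 in any D library, and over members the median of the highest D count was 36 reads. The lowest count of any member in an ND library was 22. The coefficient of variation over the 6 libraries of a state had a median of 16.4% for members in ND females, where it was 18.5% over all 21100 contigs, and of 25.9% for members in D females, where it was 22.8% over all. The rule itself favored a small spread within a state, and the members' counts were lower in D than in ND libraries. These medians are thus not independent of the choice of members. Scaling with TMM factors (edgeR's trimmed mean of M-values), which were 1.09 to 1.15 in ND and 0.837 to 0.921 in D libraries, moved the median log2 ratio of all 21100 contigs to 0.05, against 0.39 with library totals. It moved that of the members to 3.04, against 3.37, and the groups of all 200 members remained apart, with a lowest rule ratio of 3.20.

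At the head of the ranking stood contig_20143, whose best blast hit is the protein XP_002046772. Its levels were 712, 515 and 689 CPM in ND CDL females of lines 3OL8, 265OJ8 and 175OJ8 and 838, 709 and 1016 CPM at ND LD 22:2, against 5.02, 5.03 and 7.70 CPM at D LD 16:8 and 8.55, 5.78 and 6.38 CPM at D CDL (lines in the same order). The ND and D libraries were thus far apart, with a rule ratio of 59.6 and a ratio of means of 115. Rank 2, contig_10493 (XP_002051376), had 327, 523 and 654 CPM (lowest, median and highest) in ND and 5.38, 6.81 and 11.1 CPM in D libraries. Rank 3, contig_22659 (XP_002052632), had 188, 313 and 348 CPM in ND and 2.26, 4.87 and 6.92 CPM in D libraries. Their rule ratios were 29.2 and 26.7, and the states were apart in both.

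Rank 4, contig_16620 (XP_002048199), combined a high ratio with one of the highest read numbers of all members. It had 1929, 2193 and 1442 CPM in ND CDL females of lines 3OL8, 265OJ8 and 175OJ8 and 1088, 1890 and 1240 CPM at ND LD 22:2. In D females it had 10.6, 9.02 and 12.02 CPM at LD 16:8 and 16.9, 32.7 and 43.9 CPM at the CDL, lines in the same order, so the D light cycles did not overlap.

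The other leading contigs covered a wide span of read numbers. Rank 5, contig_25868, which matches a genomic scaffold (NW_002014421), had 51.1, 57.1 and 94.5 CPM in ND and 0.911, 1.38 and 2.44 CPM in D libraries. Rank 6, contig_19430 (XP_002057537), had 312, 433 and 495 CPM in ND and 8.67, 9.82 and 17.1 CPM in D libraries. Rank 7, contig_27974 (XP_002052812), had 95.1, 125 and 198 CPM in ND and 2.08, 3.66 and 5.24 CPM in D libraries. These 3 contigs had rule ratios between 17.8 and 20.1. Rank 8, contig_28629 (FBgn0203707), had the lowest mean D level of all members, with 23.8, 37.3 and 63.9 CPM in ND and 0.376, 0.474 and 1.27 CPM in D libraries. Rank 9, contig_24696 (XP_002054202), had 198, 272 and 336 CPM in ND and 3.25, 4.85 and 12.4 CPM in D libraries, and its highest D value came from a single library (D CDL, line 175OJ8). Rank 10, contig_23119 (XP_002057244), had 51.4, 61.6 and 67.6 CPM in ND and 1.56, 2.81 and 3.43 CPM in D libraries.

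**Figure D2:**
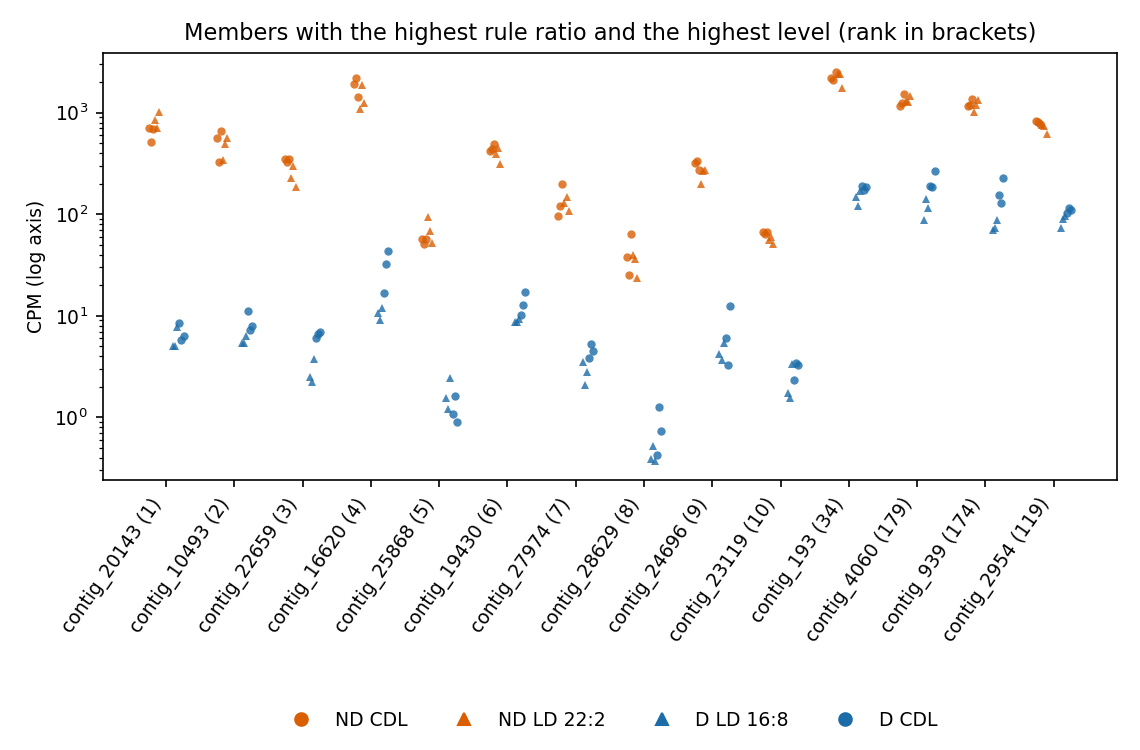
Levels in CPM (log axis) of the 10 members with the highest rule ratio and of the members with the highest mean ND level, 1 point per library, with circles for the CDL and triangles for LD 22:2 (ND, orange) or LD 16:8 (D, blue). The state groups are apart in every contig shown, from contig_20143 (515 CPM or more in ND, 8.55 CPM or less in D) to contig_4060, whose lowest ND and highest D libraries differ 4.43-fold by the rule.

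Besides contig_16620, the members with the most reads per library in ND females were contig_193, contig_4060, contig_939 and contig_2954. CPM are not corrected for contig length, so the order of contigs by CPM is one of read number and not of transcript abundance. contig_193 (XP_002052405, rank 34) had 1745, 2301 and 2521 CPM in ND and 119, 170.2 and 189 CPM in D libraries, with an SD of 282 CPM over the ND and of 26.3 CPM over the D libraries. contig_4060 (scaffold NW_002014456, rank 179) had 1169, 1287 and 1522 CPM in ND and 87.3, 163 and 264 CPM in D libraries. contig_939 (XP_002055546, rank 174) had 1016, 1192 and 1358 CPM in ND and 70.7, 109 and 229 CPM in D libraries. contig_2954 (NP_731877, rank 119) had 614, 763 and 834 CPM in ND and 74.01, 99.9 and 116 CPM in D libraries. Of these 4, 3 lay beyond rank 100, since the rule ranks by the gap between the states and not by the level.

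The limit of the ranking fell among contigs with nearly equal rule ratios. The last 5 members were contig_20732, contig_4947, contig_15565, contig_7371 and contig_1082, with rule ratios of 4.30, 4.29, 4.28, 4.26 and 4.25. The first 5 contigs outside were contig_14687, contig_22589, contig_11335, contig_28638 and contig_1259, with 4.23, 4.23, 4.23, 4.22 and 4.21. Just inside, contig_1082 had 57.9, 67.7 and 85.5 CPM in ND and 8.86, 9.91 and 13.5 CPM in D libraries. Just outside, contig_14687 had 31.8, 45.0 and 54.6 CPM in ND and 3.09, 5.27 and 7.41 CPM in D libraries.

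Which library set the ranking was uneven. The lowest ND value came from replicate 3 of ND LD 22:2 in 108 of 200 members, where this library was the lowest in 22.1% of the 21100 contigs. It came from the ND CDL library of line 3OL8 in 39 members (21.2% of the 21100 contigs) and from that of line 175OJ8 in 3 (13.6% of the 21100 contigs). The highest D value came from the D CDL library of line 175OJ8 in 60 members (21.4% of the 21100 contigs) and from replicate 2 of D LD 16:8 in 12 (13.3% of the 21100 contigs). Leaving out replicate 3 of ND LD 22:2 kept 173 of the members in the leading 200, and leaving out any other single library kept more, up to 198.

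Since the rule set the lowest ND against the highest D library, a state difference in every line and light cycle was fixed by the choice of members. At the CDL the ND over D ratio had a median over the members of 9.76 in line 3OL8, 9.60 in line 265OJ8 and 10.4 in line 175OJ8. Between ND LD 22:2 and D LD 16:8 means the median was 10.4, and between the CDL means of both states it was 10.0. The smallest of the 3 line ratios at the CDL was that of line 3OL8 in 75 members, of line 265OJ8 in 66 and of line 175OJ8 in 59. Single members could differ between lines, as contig_28658 did with a ratio of 43.7 in line 175OJ8 and 5.24 in line 265OJ8. A ranking on the 6 CDL libraries alone shared 154 contigs with the members, and a ranking on line 175OJ8 alone shared 164.

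The deposited tables give each contig 1 blast hit by accession, without a gene name, and no accession of any contig in the series, member or not, was found in the RefSeq gene table of *D. montana* (15263 genes). The paper reports that most hits were to *D. virilis* and nearly all others to further *Drosophila* species. Accessions of other species are not entries of that table, so the lack of a match does not show that a member lacks a gene there. The members are therefore described by contig and hit. The hit was a RefSeq protein for 137 members (68.5%, against 60.1% of the 21100 contigs) and a FlyBase gene for 41 (20.5%, against 19.8%). It was a genomic scaffold for 11 members (5.5%, against 11.1%) and another database entry for 7 (3.5%, against 6.17%), and 2 members had no hit. The members carried 175 distinct hits, of which 4 were carried by 3 members and 15 by 2. Contigs of one hit can be pieces of one transcript, transcripts of related genes or alleles, and the files do not tell these apart.

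The 3 members that matched XP_002051270 were the whole of that hit in the assembly. contig_3887 (rank 22) had 193, 215 and 274 CPM in ND and 8.31, 14.9 and 17.3 CPM in D libraries. contig_9575 (rank 84) had 215, 249.7 and 287 CPM in ND and 19.1, 24.1 and 34.6 CPM in D libraries. contig_10506 (rank 111) had 73.97, 90.5 and 112 CPM in ND and 7.81, 9.67 and 13.7 CPM in D libraries. Their ratios of means were between 9.18 and 16.5.

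Of the 4 contigs with a mean of 5 or more CPM that matched XP_002054936, 3 were members and the remaining one was at a like level in both states. contig_28333 (rank 41) had 50.1, 107 and 174 CPM in ND and 4.01, 4.90 and 5.99 CPM in D libraries. contig_28332 (rank 80) had 29.1, 73.6 and 115 CPM in ND and 2.51, 2.60 and 4.52 CPM in D libraries, and contig_14959 (rank 173) had 62.1, 139 and 206 CPM in ND and 8.93, 12.5 and 13.9 CPM in D libraries. The log2 ratio of means lay between 3.51 and 4.65 for these 3 and was 0.08 for contig_28704. A like split appeared for FBgn0200083, where contig_27999, contig_11638 and contig_24846 (ranks 55, 63 and 136) had log2 ratios between 3.00 and 3.62, whereas contig_28630 had 0.24. The scaffold NW_002014421 was matched by contig_25868, contig_17410 and contig_24766 (ranks 5, 19 and 155), and a scaffold spans many genes.

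Contigs outside the 200 that shared a gene or protein hit with a member mostly had higher levels in ND females as well. Of 180 members with such a hit, 73 carried one that no other contig had. For the rest, 143 other contigs with a mean of 5 or more CPM shared the hit, and 119 of them (83.2%) had every ND library above every D library, against 36.9% of the 20900 contigs outside the members. Their median log2 ratio of means was 1.89, against 0.38. Every D library lay above every ND library in 2 of the 143, and in 12.1% of the 20900. These 143 are not independent of the members, since contigs of one hit can be pieces of one transcript.

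**Figure D3:**
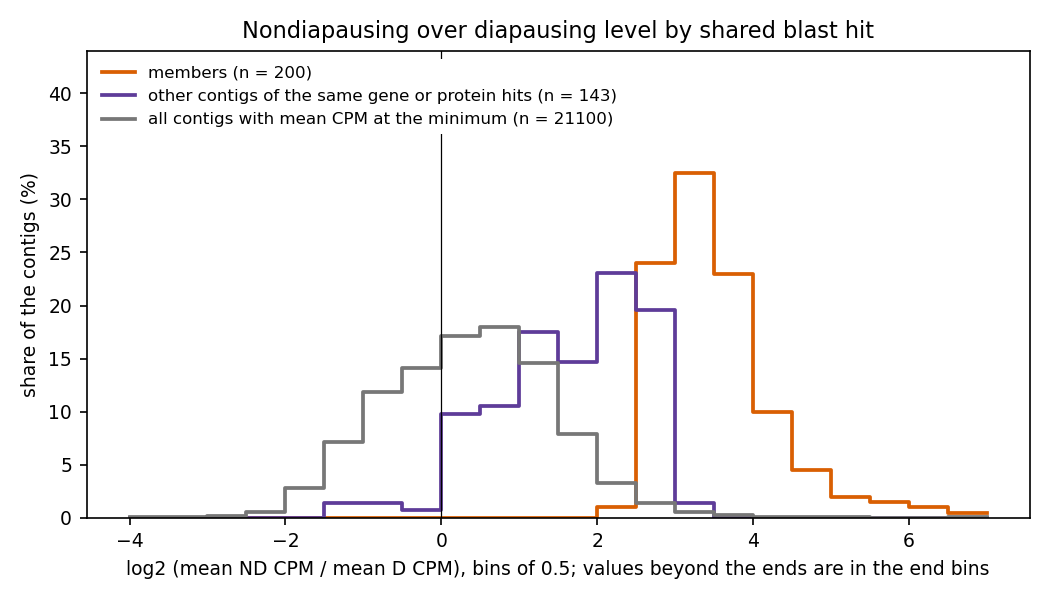
Share of contigs (%) by the log2 ratio of mean ND to mean D CPM in bins of 0.5, for the 200 members (orange), the 143 other contigs that share a gene or protein hit with a member (purple) and all 21100 contigs with a mean of 5 or more CPM (grey). The median of the contigs that share a hit is 1.89 and lies between that of the members (3.37) and that of all contigs (0.39).

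Of the 143 contigs, 5 had a lower mean in ND than in D females. contig_23021 shared XP_002057097 with the member contig_13500 and had 27.4, 40.2 and 46.2 CPM in ND and 80.2, 98.6 and 159 CPM in D libraries. contig_22201 shared XP_002059333 with the member contig_13272 and had 14.7, 22.7 and 30.3 CPM in ND and 31.3, 46.6 and 63.4 CPM in D libraries. In both the states did not overlap and the order was opposite to that of the member. XP_002059333 was carried by 21 contigs, of which 13 had a mean of 5 or more CPM, and the log2 ratios of the 12 other than the member lay between -1.005 and 1.496. contig_11195 and contig_27708 shared XP_002058385 with the member contig_28649 and had log2 ratios of -0.65 and -0.57, and contig_5546, which shared XP_002046591 with contig_6463, had -0.16. In these 3 the states overlapped.

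The genes that the study lists for neuron development, ion transport, reproduction and primary metabolism held no member, where 200 of all 21100 contigs were members. At that share few or none would fall in lists of this size, so the absence says little about these genes. The study chose these lists for light cycle responses in the same libraries. Contigs that vary within a state less often have every ND library above every D library. Their share with this order, and among the members, was thus shaped by the choice of the lists. Together they hold 72 contigs, of which 62 could enter the ranking, and 7 of the 62 (11.3%, against 37.5% of all 21100) had every ND library above every D library. The contigs of Yp2 and Yp3 are also on these lists and had this order, but they were left out in advance and are not among the 62. The nearest to the members was the contig of calypso (contig_8221), a chromatin regulator of the Polycomb group, at rank 682 with 5.14, 9.01 and 15.3 CPM in ND and 0.867, 1.18 and 1.69 CPM in D libraries. The contigs of mxc (contig_25677, rank 1247) and plexB (contig_7028, rank 1619) followed the same order. So did Sym (contig_20642), which acts in the formation of mRNA ends, at rank 1838. mxc had 15.4, 18.8 and 1039 CPM in ND and 3.85, 4.20 and 6.57 CPM in D libraries. plexB had 23.5, 31.1 and 5816 CPM in ND and 5.28, 9.52 and 11.1 CPM in D libraries. In both, the highest ND library lay far above the median. Sym had 96.6, 157 and 188 CPM in ND and 8.85, 19.96 and 48.3 CPM in D libraries. In all, 149 contigs that could enter the ranking carried the hit of a listed contig, the 62 listed ones included. None of these was a member, where members were 200 of the 21100 contigs.

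Whether the members responded to day length among ND females was asked by comparing ND CDL with ND LD 22:2 females in edgeR's likelihood ratio test over all 31233 contigs. No member passed a false discovery rate (FDR) of 0.05, where 0.224% of all contigs did, and 8 members (4%, against 5.58% of all contigs) had an unadjusted p below 0.05. The quasi-likelihood and DESeq2 tests called no member either. The rule used the lowest ND and the highest D library, so it disfavored contigs that vary within a state. Few calls among the members, here and in the comparisons below, thus do not show that they lack a response. The fitted log2 change had a median of 0.09 over the members and 0.01 over the 21100 contigs, and it was above 0 in 143 members (71.5%, against 52.3%). All 3 ND CDL libraries lay above all 3 ND LD 22:2 libraries in 25 members (12.5%, against 8.22% of the 21100 contigs), and the opposite order occurred in 1 member (0.5%, against 5.35%). The shift in the median was small and rested in part on single libraries. It was 0.04 over the members and 0.02 over the 21100 contigs without the ND CDL library of line 175OJ8 (57.5% of members above 0, against 52.2%). Without replicate 3 of ND LD 22:2, in which 108 members had their lowest ND level, it was 0.06 and 0.05 (63.5%, against 56.7%), whereas it was 0.16 over the members without replicate 1 of ND LD 22:2, 0.14 without the ND CDL library of line 265OJ8 and 0.19 with line as a term.

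Among D females, most members had lower levels at LD 16:8 than at the CDL, but a single one passed edgeR's likelihood ratio test. All 3 D LD 16:8 libraries lay below all 3 D CDL libraries in 39 members (19.5%, against 7.44% of the 21100 contigs), while the reverse held in 8 (4%, against 3.93%). The fitted log2 change of LD 16:8 over CDL had a median of -0.21 over the members and -0.04 over the 21100 contigs, and it was below 0 in 143 members (71.5%, against 55.05%). The member called in the likelihood ratio test fell, where 0.189% of all contigs fell (0.403% in either direction). An unadjusted p below 0.05 in that test was found for 18 members (9%, against 7.32% of all contigs). The quasi-likelihood test called no member, and DESeq2 called 6 (3%, against 0.352% of all contigs), all lower at LD 16:8. Counts were low in D females, with a median of 23.5 to 33 reads per member and library.

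The member called in the likelihood ratio test was contig_16620. It had 10.6, 9.02 and 12.02 CPM at D LD 16:8, against 16.9, 32.7 and 43.9 CPM at D CDL in lines 3OL8, 265OJ8 and 175OJ8. Its libraries did not overlap, and the log2 change was -1.54 (SE 0.379, FDR 0.0185 in edgeR's likelihood ratio test). contig_939 just missed the threshold, with 70.7, 72.7 and 87.7 CPM at D LD 16:8 and 155, 130.5 and 229 CPM at D CDL in the same line order, a log2 change of -1.14 (SE 0.311) and an FDR of 0.0624. The call of contig_16620 was lost in the quasi-likelihood test (FDR 0.131) and when any D LD 16:8 library, the D CDL library of line 265OJ8 or 175OJ8, or replicate 3 of ND LD 22:2 was left out (log2 changes between -1.84 and -1.22 over all libraries left out in turn). The yolk genes moved the same way in these libraries, with mean levels of 26.9 CPM at D LD 16:8 against 77.6 CPM at D CDL for Yp2 and of 103 against 298 CPM for Yp3. Lsp2 averaged 4723 CPM at D LD 16:8 and 3926 CPM at D CDL. The part of these in the members' difference was not tested.

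**Figure D4:**
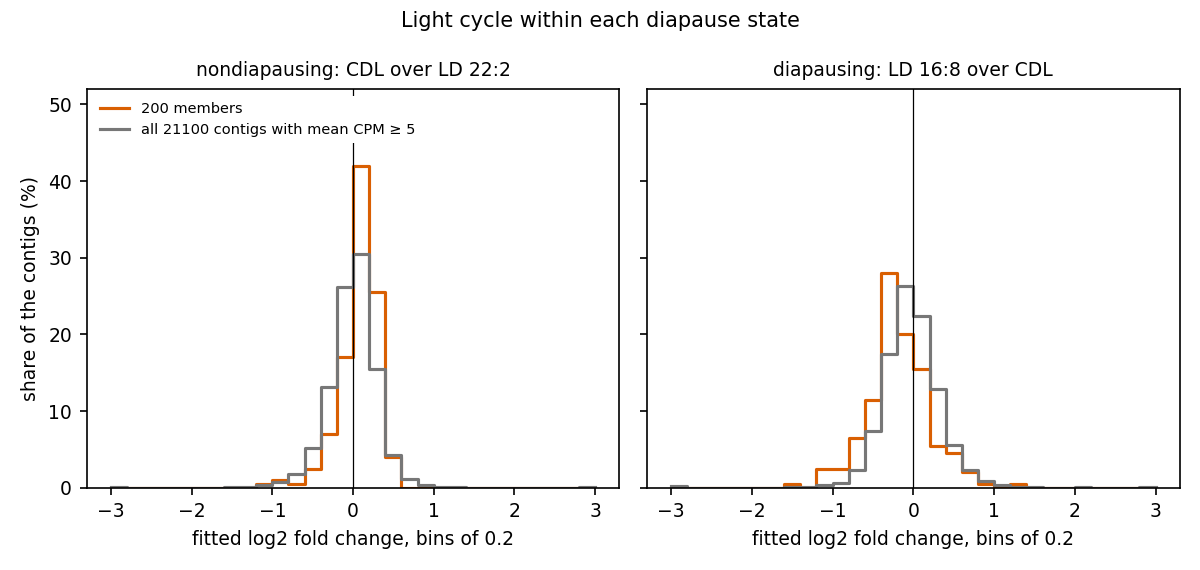
Share of contigs (%) by the fitted log2 change between light cycles, in bins of 0.2, for the 200 members (orange) and for all 21100 contigs with a mean of 5 or more CPM (grey). Left, ND CDL over ND LD 22:2, with medians of 0.09 and 0.01. Right, D LD 16:8 over D CDL, with medians of -0.21 and -0.04. The outermost bins also hold the values beyond them.

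The diapause state by light cycle interaction asked whether the shorter day of each pair changed the members differently in D and in ND females. It was called for 2 members, both negative, where 0.365% of all contigs were called in that direction and 1.07% in either. Neither call held with line as a term, where edgeR gave an FDR of 0.148 for contig_12770 and 0.0654 for contig_16620, or with the line 175OJ8 libraries alone (FDR 0.202 for each), and the CDL groups hold 3 lines where the other groups hold 1. The median log2 value was -0.29 over the members and -0.06 over the 21100 contigs, and it was below 0 in 152 members (76.0%, against 54.7%). Since the shorter day of the ND pair and the longer day of the D pair are the same cycle, a negative value means that, summed over the 2 states, the level at the CDL lay above that at the other cycles.

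contig_12770 (rank 53) had 48.6, 55.9 and 45.2 CPM at ND CDL in lines 3OL8, 265OJ8 and 175OJ8 and 30.3, 36.8 and 32.2 CPM at ND LD 22:2. In D females it had 1.55, 1.56 and 2.07 CPM at LD 16:8 and 4.06, 3.796 and 4.19 CPM at the CDL. The CDL libraries were the higher in both states without overlap, and the interaction was -1.75 on the log2 scale (SE 0.430, FDR 0.00804). contig_16620, with the values given above, had an interaction of -1.91 (SE 0.520, FDR 0.0315), and its ND light cycles overlapped. It was also lost in the quasi-likelihood test (FDR 0.0895) and in 8 of the 12 fits with a library left out (FDR 0.0695 to 0.163 in edgeR), namely the ND CDL library of line 265OJ8 or 3OL8, replicate 1 or 3 of ND LD 22:2, replicate 1 or 2 of D LD 16:8, and the D CDL library of line 175OJ8 or 265OJ8. contig_12770 matched the same protein as contig_19430 (XP_002057537), and no other contig did. contig_19430 had 422, 444 and 495 CPM at ND CDL in the same line order and 393, 448 and 312 CPM at ND LD 22:2, with an interaction of -0.77 (SE 0.466, FDR 0.618).

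A level at the CDL above that at the other cycle in every library of both states was found in 6 members (3%, against 1.26% of the 21100 contigs). These were contig_22659, contig_12770, contig_2954, contig_24869, contig_1213 and contig_4468, and the opposite in both states was found in no member, against 1%. contig_22659 had 348, 328 and 348 CPM at ND CDL against 229, 299 and 188 CPM at ND LD 22:2, and 2.51, 2.26 and 3.76 CPM at D LD 16:8 against 5.98, 6.69 and 6.92 CPM at D CDL. Its interaction was -1.67 (SE 0.502) with an FDR of 0.0649.

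The size of the state difference itself, between ND LD 22:2 and D LD 16:8 females less that at the CDL, was called for no member, where 0.0032% of all contigs were called. The rule had used these same libraries and required a gap in both pairs of groups. The absence of calls is thus shaped by the choice of members and does not show that their gap is independent of light cycle. At an unadjusted p below 0.05 there were 7 members (3.5%, against 3.39% of all contigs), and the quasi-likelihood and DESeq2 tests called none either. The median log2 value was 0.13 over the members and 0.03 over the 21100 contigs, and it was above 0 in 133 members (66.5%, against 53.8%). This median depended on single libraries, with 0.05 without replicate 1 of ND LD 22:2, 0.06 without the ND CDL library of line 265OJ8, 0.08 without replicate 2 of ND LD 22:2 and 0.07 without the D CDL library of line 175OJ8.

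Differences between the isofemale lines were asked at the CDL with diapause state and light cycle in the model. Line 3OL8 against the mean of lines 265OJ8 and 175OJ8 gave 2 called members, both higher in 3OL8, where 0.938% of all contigs were higher and 1.42% were called in either direction. The median log2 difference was -0.08 over the members and -0.03 over the 21100 contigs, but -0.04 and -0.03 without the ND CDL library of line 3OL8 and -0.05 and -0.02 without that of line 175OJ8. Line 265OJ8 against line 175OJ8 gave 2 called members, both lower in 265OJ8, where 0.128% of all contigs were lower and 0.323% were called in either direction. The median was -0.12 over the members and -0.02 over the 21100 contigs, and 145 members (72.5%, against 53.0%) were below 0. Without the ND CDL library of line 175OJ8 it was -0.07 over the members, with 59.5% below 0, against 49.3%.

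contig_31420 (FBgn0198334, rank 146) was called in both. It had 54.2 CPM in line 3OL8, 12.9 CPM in line 265OJ8 and 41.6 CPM in line 175OJ8 at ND CDL, and 2.56, 1.08 and 2.00 CPM at D CDL, so that line 265OJ8 was the lowest in both states. In the other line 175OJ8 libraries it had 74.2, 53.5 and 43.4 CPM at ND LD 22:2 and 1.16, 1.21 and 1.13 CPM at D LD 16:8. The log2 difference was 1.16 (SE 0.316, FDR 0.0170) for 3OL8 over the OJ8 lines and -1.52 (SE 0.382, FDR 0.0303) for 265OJ8 over 175OJ8.

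contig_28342 (XP_002058214, rank 115) had 107, 23.8 and 44.03 CPM at ND CDL in lines 3OL8, 265OJ8 and 175OJ8, and 3.63, 2.53 and 4.37 CPM at D CDL. Line 3OL8 was the highest among ND but not among D females, and the log2 difference to the OJ8 lines was 1.23 (SE 0.328, FDR 0.0134). The line 175OJ8 libraries of ND LD 22:2 had 89.6, 63.2 and 47.3 CPM, which lay between the ND CDL levels of lines 3OL8 and 175OJ8. Without the ND CDL library of line 3OL8 the difference was 0.15.

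contig_12428 (XP_002055713, rank 21) had 83.0, 83.2 and 284 CPM at ND CDL in the same line order, 184, 195.9 and 144 CPM in the line 175OJ8 libraries of ND LD 22:2, and 3.42, 4.16 and 7.29 CPM at D CDL. All 4 ND libraries of line 175OJ8 lay above those of the other lines, and 265OJ8 over 175OJ8 gave a log2 difference of -1.40 (SE 0.362, FDR 0.0437). The other member with this hit, contig_23206 (rank 176), had 41.9, 41.0 and 44.5 CPM at ND CDL, so that line 175OJ8 was again the highest but the lines lay closer together. With 1 library per line and state, each of these line calls was lost when an ND CDL library was left out, whichever of the 3 it was. The calls of 265OJ8 against 175OJ8 were also lost in the quasi-likelihood test (FDR 0.120 for each) and without replicate 2 of ND LD 22:2, and that of contig_12428 without replicate 1 of ND LD 22:2 or the D CDL library of line 265OJ8 or 3OL8. Both calls of contig_31420 were lost without the D CDL library of line 175OJ8, and that of 3OL8 over the OJ8 lines also without the D CDL library of line 3OL8.

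**Figure D5:**
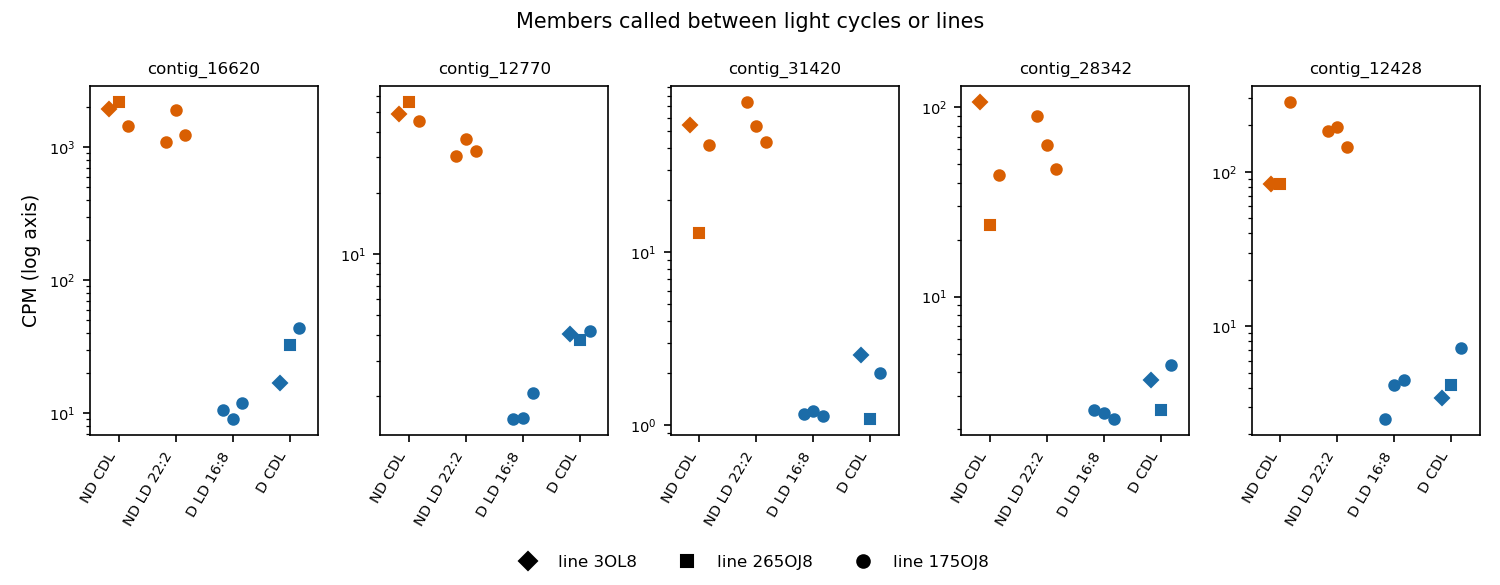
Levels in CPM (log axis) of the 5 members called between light cycles or lines, by group (ND orange, D blue), with a symbol for each line. contig_16620 and contig_12770 are higher at D CDL than at D LD 16:8, and contig_31420 is lowest in line 265OJ8 at the CDL. For contig_28342 line 3OL8 is the highest of the lines at ND CDL (107 CPM). The line 175OJ8 libraries are highest for contig_12428 in ND females.

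Line 175OJ8 was the highest of the 3 lines in both states at the CDL in 55 members (27.5%, against 18.4% of the 21100 contigs) and the lowest in both in 8 (4%, against 12.6%). Line 3OL8 was the lowest in both states in 45 (22.5%, against 20.1%) and the highest in 18 (9%, against 12.9%), and line 265OJ8 was the lowest in 27 (13.5%, against 9.39%) and the highest in 11 (5.5%, against 10.8%). Members with a shared hit could follow the same order of lines. The 3 members of XP_002054936 had their highest ND CDL level in line 175OJ8 and their lowest in line 265OJ8. contig_28333 had 83.4, 50.1 and 174 CPM, contig_28332 had 58.3, 29.1 and 115 CPM and contig_14959 had 89.7, 62.1 and 206 CPM in lines 3OL8, 265OJ8 and 175OJ8. Both members of FBgn0203707 did likewise, with 38.2, 25.1 and 63.9 CPM for contig_28629 and 34.8, 25.5 and 102 CPM for contig_28684. None of these 5 was called between the lines, and in D CDL females the order was not kept, with 4.91, 4.52 and 4.01 CPM for contig_28333 in the same line order.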

How the data were processed

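The authors sequenced polyA RNA on a SOLiD platform, trimmed and error-corrected the reads, assembled contigs *de novo* with CLC Bio together with reads of other studies, and assigned each contig a blast hit. Reads were mapped to the contigs with CLC Bio and those mapping uniquely were counted with HTSeq. The deposited values are these raw counts per contig, without normalization, 1 table per library. Contig sequences and lengths were not used here, so CPM are not corrected for length and reads of near-identical contigs may be missing from the unique counts.

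From the counts, CPM were computed per library total, members were ranked as described, and all contigs were fitted in edgeR 4.0.16 (R 4.3.3) with TMM factors, Cox-Reid dispersions, likelihood ratio tests and Benjamini-Hochberg adjustment over 31233 contigs (FDR below 0.05). Line contrasts added line to the 4 groups. The scripts were tested on simulated data. Alternatives were the quasi-likelihood test, DESeq2 1.42.0, other scalings and filters, line as a term, subsets of libraries, a replicate block and each library left out. The members, and the lists taken from the study, were chosen with earlier results of these data known. Contigs were named if they held ranks 1 to 10, had 1 of the 5 highest mean ND levels, lay 5 places either side of the limit, carried 1 of the hits with most members or were called. Those named in addition (contigs near a threshold or uneven between lines, contigs that share a hit but are lower in ND, and those in counts of 6 or fewer) were picked after their values were seen. So were the contigs of the study's lists that ranked nearest to the members. Same-line ND and D libraries at the CDL deviated together (r of 0.267, 0.192 and 0.436 over contigs), whereas equal replicate numbers at LD 22:2 and LD 16:8 did not (-0.0252, -0.150 and 0.0878).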

Additional observations from a re-analysis of the deposited data

Results flagged for a closer look

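The diapause state by light cycle interaction was called for 2 members in edgeR's likelihood ratio test, and neither call held once line was in the model. The log2 interaction was -1.75 for contig_12770 (FDR 0.00804) and -1.91 for contig_16620 (FDR 0.0315). With line as a term the FDR was 0.148 and 0.0654 in that order, and with the line 175OJ8 libraries alone it was 0.202 for each. The call of contig_16620 was lost in 11 of 20 alternatives in all, and that of contig_12770 in these 2. Groups held 3 libraries, which is too few for a test of single libraries within a group.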

How the results depend on the processing

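Under every other ranking tried, 139 (ratio of means) or more of the 200 members were kept, and 173 to 198 with a library left out. Of the contigs that share a hit, 119 of 143 (83.2%) had all ND above all D libraries, against 101 of 138 (73.2%) with TMM factors, 138 of 177 (78.0%) at a mean CPM of 1 or more, and 116 to 125 (83.0 to 85.6%) with a library left out. Over all 21100 contigs the share with this order was 37.5% with library totals and 26.2% with TMM factors. For the other settings the share over all contigs is not given. The order of libraries by light cycle and line was also counted with TMM factors, an alternative chosen after seeing the data, and all ND LD 22:2 libraries then lay above all ND CDL libraries in 3 members (1.5%, against 6.56% of the 21100 contigs), beside 1 with library totals (0.5%, against 5.35%).

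Among ND females no member was called under any alternative but the omission of the ND CDL library of line 175OJ8 (range 0 to 1 over libraries left out). That omission called 1 member (0.5%, against 0.211% of all contigs). Among D females 1 member was called among 126 contigs in all (0.5% of members, against 0.403% of all contigs, and so in the brackets below). The quasi-likelihood test called 0 members among 2 contigs (0%, against 0.0064%) and DESeq2 6 among 110 (3%, against 0.352%). Library totals alone called 2 among 126 (1%, against 0.403%), and contigs of mean CPM of 5 or more alone 2 among 146 (1%, against 0.692%). Line as a term called 3 among 261 (1.5%, against 0.836%). With a library left out 0 to 1 were called (0 to 0.5%, against 0.173 to 0.637%). For the interaction, 2 were called among 334 contigs (1%, against 1.07%). DESeq2 called 5 among 302 (2.5%, against 0.967%) and line as a term 1 among 334 (0.5%, against 1.07%). With a library left out 1 to 3 were called (0.5 to 1.5%, against 0.531 to 1.41%). For line 3OL8 against the OJ8 lines, with 2 called (1%, against 1.42%), the range was 0 (without any one ND CDL library) to 2. With a library left out these were 0 to 1% of members, against 0.528 to 1.71% of all contigs. For line 265OJ8 against 175OJ8, 2 were called among 101 contigs (1%, against 0.323%). The quasi-likelihood test called 0 among 27 (0%, against 0.0864%) and library totals alone 1 among 98 (0.5%, against 0.314%). With a library left out the fewest were 0 (without any one ND CDL library, against 0.224 to 0.272%). The most were 6 (without the D CDL library of line 175OJ8, 3%, against 0.224%). The cause of these differences was not tested. Over all contigs the quasi-likelihood test called 1 contig among ND females, against 70, and 68 for the interaction. For line 3OL8 against the OJ8 lines it called 332 contigs, against 442, and 2 members. No call of a member reversed its direction.

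The replicate block could be fitted for the difference between the state differences, where it called 0 members, as did every alternative there. The light cycle contrasts within a state lie between blocks and could not be separated from them. Low counts in D females limit what can be seen of the members there.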

Other observations

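The members were unevenly spread over the numbers that the assembly gave its contigs. Of the contigs numbered 28000 to 28999, 352 had a mean of 5 or more CPM, and 26 of these (7.39%) were members. The block thus held 13.0% of the members and 1.67% of the 21100 contigs ranked. The next highest share was 2.26%, among contigs 27000 to 27999 (8 of 354), and contigs 29000 to 30999 held none. This pattern was noticed in the data and not tested.

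The highest coefficient of variation over the ND libraries of any member was that of contig_28669, through 1 library. contig_28669 (XP_002053517, rank 122) had 38.5, 37.4 and 44.03 CPM at ND CDL in lines 3OL8, 265OJ8 and 175OJ8 and 41.1, 31.2 and 159.997 CPM at ND LD 22:2, against 2.56 to 5.82 CPM in D libraries. The coefficient of variation was 84.9%, where the median over members was 16.4%.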
